A study of Bos taurus with 9 samples.

Results

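The 61 genes described here encode the translation initiation and elongation factors of cattle, measured by RNA sequencing in cloned embryos. Cloning was by somatic cell nuclear transfer (SCNT), a method in which an oocyte without its own chromosomes is fused with a donor cell. A gene was taken where its symbol in any of the 9 expression tables began with EIF and a digit from 1 to 6, or with EEF and 1 or 2. Symbols beginning with EIF2AK, which name kinases, were left out. The rule found 61 of the 16129 annotated genes shared by all 9 tables, and 17258 annotated genes occur in at least 1 table. The names fit the label with few exceptions. EIF2C2 is an older name of AGO2, an argonaute protein that works with small RNAs, and entered only by that name. EIF1AD, EIF4A3 and EEF1E1 resemble or bind translation factors but act mainly elsewhere, in ribosome maturation, in the exon junction complex and in the complex of tRNA synthetases, and 4 further members are enzymes that modify elongation factors.

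Initiation brings the small ribosomal subunit and the initiator tRNA to the start codon. The cap-binding protein eIF4E, the scaffold eIF4G and the helicase eIF4A prepare the mRNA, eIF2 delivers the tRNA, eIF3, eIF1, eIF1A and eIF5 hold the scanning complex together, and eIF5B joins the large subunit. The eEF1 factors then bring each further tRNA and eEF2 moves the ribosome on. Early embryos first translate mRNAs stored in the oocyte, many of them held silent through proteins that bind eIF4E, and turn to transcripts of their own genome at its activation, which in cattle falls around the 8-cell stage.

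The series asks what added KDM6A, a demethylase of histone H3, does in cloned embryos. KDM6A morulae (n = 3) came from embryos injected 1 h after activation with mRNA for bovine wild-type KDM6A, and control morulae (n = 3) from embryos with no injection, so the injection and the mRNA it carried cannot be told apart. Both kinds were collected on day 5 in pools of 5 embryos. The 8-cell embryos (n = 3) carry the control label and were taken from an earlier series, so the stage cannot be told apart from the series it came from, and the pool size and day given in the labels are those of the morulae. All embryos were of Holstein breed, and the donor cells were fibroblasts of a single female fetus at passage 3 to 4. Whether the pools within a group were made on separate days or from separate oocyte batches is not in the labels, so p-values here measure the spread among these pools alone, and that spread may be technical. A pool is a bulk sample, in which fewer cells of a type and less RNA per cell cannot be told apart.

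Values are FPKM, fragments of a gene scaled by its length and by the size of the library, as deposited, and they allow levels of different genes to be compared per length. Sequencing depth is unknown. Outside control replicate 1, summed FPKM was 820346 to 989916 per library and 8923 to 9721 rows reached 1 FPKM. Control replicate 1 had 1022423 FPKM and 11581 such rows, counted with 3038 rows of no annotated identifier that were left out of the comparisons. Within groups log2(FPKM + 1) correlated at 0.973 to 0.993. KDM6A replicate 1 correlated at 0.989 to 0.99 with the control morulae and at 0.983 and 0.986 with the other KDM6A morulae. Of the 8-cell libraries, replicate 1 was the nearest to every morula, at 0.860 to 0.893 against 0.822 to 0.864 for the others. The KDM6A transcript stood at 35.65, 87.58 and 79.44 FPKM in KDM6A morulae, 10.72, 13.86 and 10.74 FPKM in control morulae and 6.13, 9.41 and 10.73 FPKM in 8-cell embryos. Every injected pool was above every control pool, and KDM6A replicate 1 was the lowest of the injected pools. All 7 pluripotency markers looked up were above 0 in every library.

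Many single factors differed by stage, as did most genes tested, while their summed share of the transcriptome overlapped between the 3 groups. In the limma tests below, 61.4% of tested members passed with control morulae, against 69.8% of all genes. With KDM6A morulae the shares were 70.2% and 66.7%. The 61 genes held 1.61% to 1.72% of the FPKM of all annotated genes in KDM6A morulae, 1.57% to 1.67% in control morulae and 1.37% to 1.88% in 8-cell embryos, and the lowest and the highest library were both 8-cell pools. Between 55 and 59 members reached 1 FPKM in a library, and 28 to 35 reached 100 FPKM. Ranked by mean FPKM per length, EEF1A1, EIF1AX and EEF1B2 led in KDM6A morulae and EEF1A1, EEF1B2 and EIF1AX in control morulae. In 8-cell embryos EIF1AX led, followed by an EIF1 row and EIF5A.

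**Figure D1:**
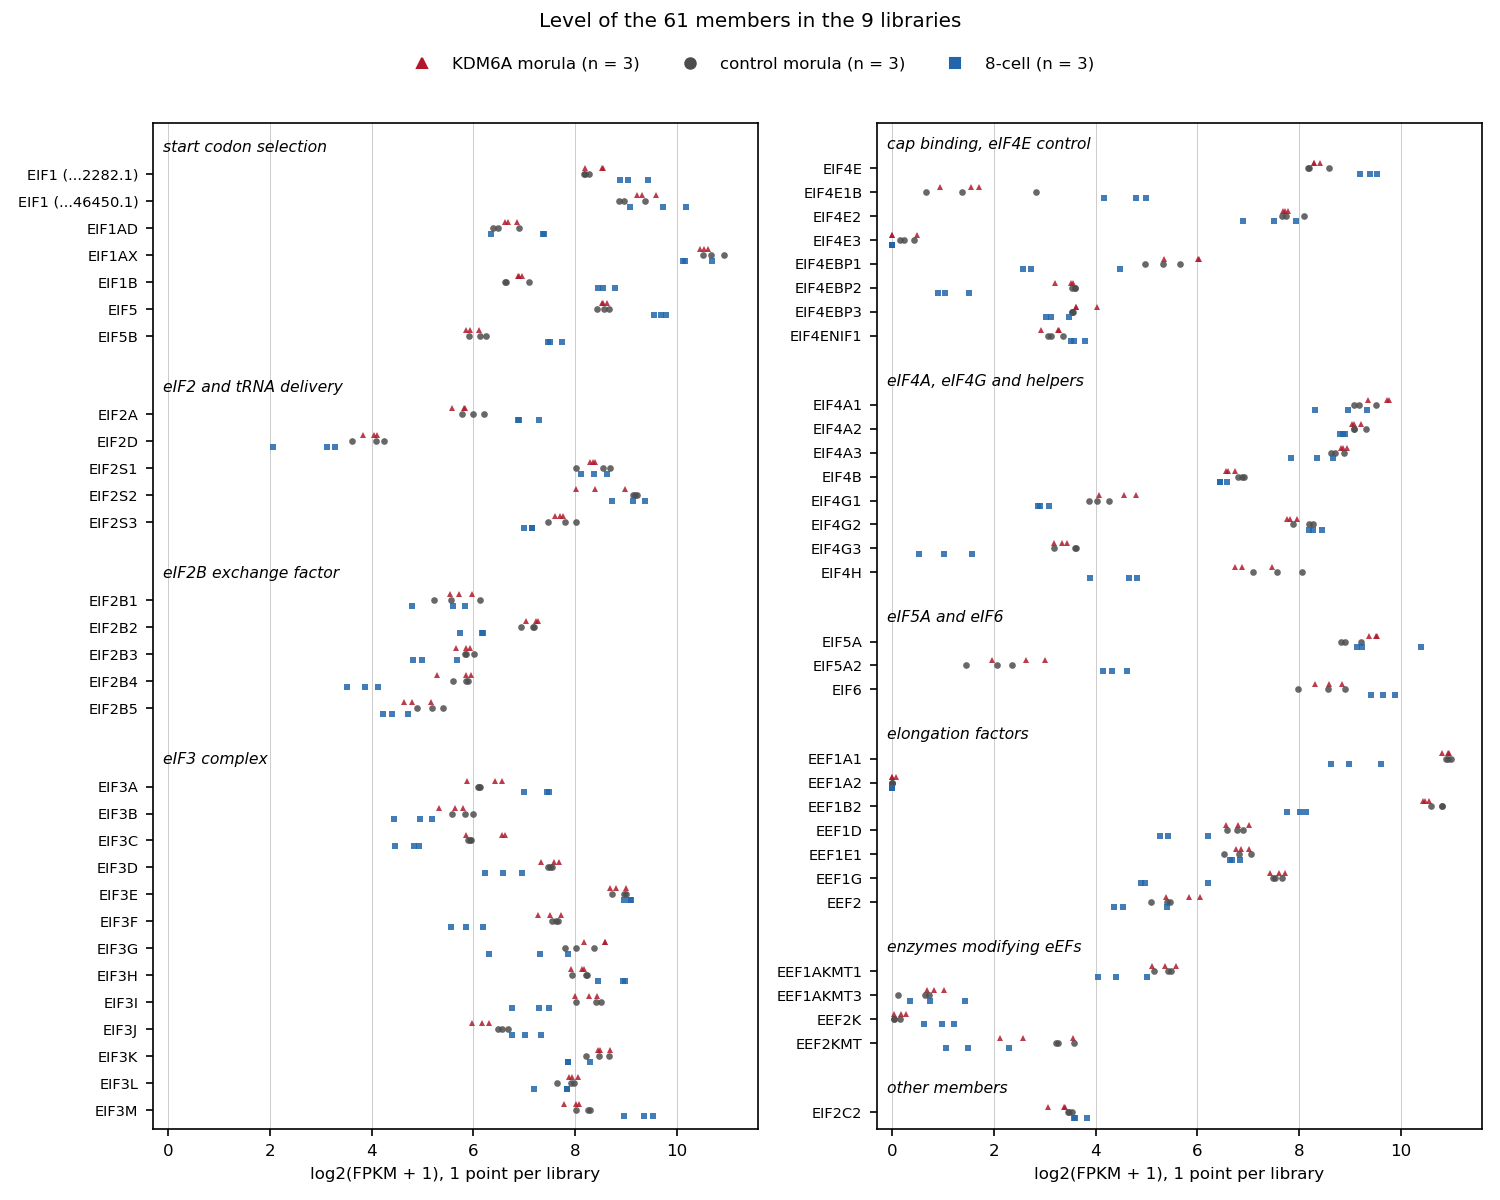
Level of each of the 61 members as log2(FPKM + 1) on the horizontal axis, with 1 point per library and 3 libraries in each of KDM6A morulae (triangles), control morulae (circles) and 8-cell embryos (squares), in blocks by role. The triangles and circles lie over each other for most members, while the squares lie to the right for EIF1B, EIF5, EIF5B, EIF4E, EIF4E1B and EIF5A2 and to the left for EIF4H, EIF4G3, EIF4EBP2, EEF1A1, EEF1B2 and EEF1G.

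Of the 61 members, 57 reached 1 FPKM in at least 3 of the 6 libraries of each comparison and were tested with limma on log2(FPKM + 1), with p-values adjusted by the Benjamini-Hochberg method over all genes tested and a threshold of 0.05. Between control morulae and 8-cell embryos, 23 members were higher in morulae, 12 were lower and 22 passed in neither direction. A call was made for 61.4% of the tested members, against 69.8% of the 10048 genes tested, so the count is below the background. In the higher direction the shares were 40.4% of members and 42.7% of all genes, and in the lower direction 21.1% of members and 27.1% of all genes. The groups did not overlap for 40 members, which is 70.2% against 74.5% of all genes. The median log2 fold change was 0.38 over the members and 0.35 over all genes. The range was wide, from -3.03 for EIF4E1B to 3.12 for EIF4H.

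Between KDM6A morulae and the same 8-cell embryos, 26 members were higher in morulae and 14 lower. A call was made for 70.2% of members against 66.7% of the 10024 genes tested. The higher direction held 45.6% of members and 41.1% of all genes, and the lower direction 24.6% of members and 25.6% of all genes. The groups did not overlap for 42 members, which is 73.7% against 71.3% of all genes. The median was 0.34 for members and 0.34 for all genes. The 2 stage comparisons share the 8-cell libraries and are therefore not independent. EIF2B5 passed with control morulae and not with KDM6A morulae. EEF2, EIF3K, EIF4A1 and EIF4A3 passed as higher, and EIF3J and EIF4G2 as lower, with KDM6A morulae and not with control morulae. These are differences in calls, and no member was called when KDM6A and control morulae were compared directly.

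The all-gene median of 0.35 between control morulae and 8-cell embryos depends on the scaling. It was 0.03 after quantile normalization, 0.10 after median-of-ratios scaling and 0.19 after rescaling each library to the same sum (TPM). Of all genes called, 61.2% were higher in control morulae on FPKM, 50.8% after quantile normalization, 52.6% after median-of-ratios scaling and 55.6% as TPM. The members split into 23 higher and 12 lower on FPKM, 21 and 18 after quantile normalization, 18 and 19 after median-of-ratios scaling and 20 and 16 as TPM. All 12 lower calls and 18 of the 23 higher calls were made under each of the 4 scalings. The higher calls lost in at least 1 scaling were those of EEF1AKMT1, EIF2B3, EIF2B5, EIF2S3 and EIF3G. With no filter on low values, 19 members were higher and 15 lower in KDM6A morulae, and 22 were higher and 13 lower in control morulae, against 8-cell embryos. The calls of EEF1AKMT1, EEF2, EEF2KMT, EIF2B3, EIF3B, EIF4A1 and EIF4A3 were then lost with KDM6A morulae (adjusted p = 0.0511 to 0.124), and those of EIF2B3, EIF2D and EIF3G with control morulae (adjusted p = 0.0542 to 0.140). EEF2K was gained in both, and EIF4B and EIF4E3 were gained with control morulae. Relative to the all-gene median, the members ranged from -3.38 to 2.77 on the log2 scale.

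**Figure D2:**
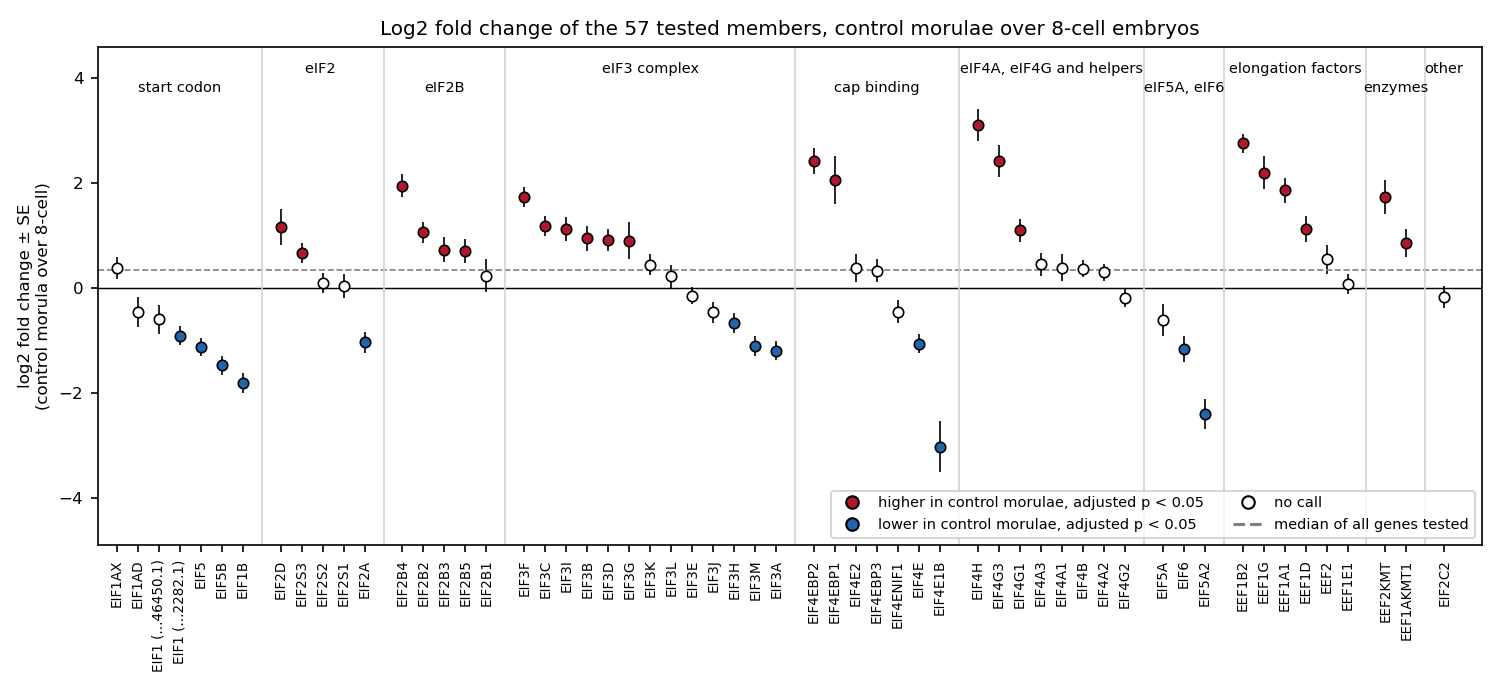
Log2 fold change of each of the 57 tested members, control morulae over 8-cell embryos (n = 3 each), with its standard error, in blocks by role and sorted within each block. Filled points passed the threshold, and the dashed line is the all-gene median of 0.35. The elongation factors and eIF2B hold higher calls and no lower ones, start codon selection holds lower calls and no higher ones, and the eIF3 complex and the cap-binding group hold both.

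The cap-binding group held calls in both directions. EIF4E, the main cap-binding protein, was lower in morulae, and its inhibitors EIF4EBP1 and EIF4EBP2 were higher. EIF4E1B, an eIF4E relative that vertebrates express mainly in oocytes, had the largest fall on log2(FPKM + 1) among the tested members. Of the 7 tested of 8 members, 2 were higher and 2 lower in each stage comparison. That is 28.6% in each direction, against 41.1% higher and 25.6% lower of all genes for KDM6A morulae and 42.7% and 27.1% for control morulae. EIF4E stood at 312, 315 and 339 FPKM in KDM6A morulae, 386, 287 and 291 FPKM in control morulae and 674, 741 and 590.0 FPKM in 8-cell embryos. All 6 morula libraries lay below all 3 8-cell libraries, and KDM6A and control morulae overlapped. The log2 fold change was -1.05 (SE 0.168, adjusted p = 0.000282) for KDM6A morulae over 8-cell embryos and -1.06 (SE 0.187, adjusted p = 0.000638) for control morulae over 8-cell embryos, both from limma.

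EIF4E1B stood at 2.27, 1.94 and 0.920 FPKM in KDM6A morulae, 6.12, 0.590 and 1.59 FPKM in control morulae and 17, 30.8 and 26.8 FPKM in 8-cell embryos. Every 8-cell library exceeded every morula library, and control replicate 1 was the highest of the morulae. Mean FPKM was 14.6 times lower in KDM6A morulae than in 8-cell embryos and 8.99 times lower in control morulae, or 22.8 times lower without control replicate 1, with limma log2 fold changes of -3.25 (SE 0.316, adjusted p = 1.07e-05) and -3.03 (SE 0.485, adjusted p = 0.000355). As a share of the summed FPKM of the 4 eIF4E family genes, EIF4E1B averaged 0.321% ± 0.134 in KDM6A morulae, 0.452% ± 0.418 in control morulae and 2.88% ± 0.921 in 8-cell embryos (SD, n = 3 each). Oocyte transcripts moved with it. The 10 oocyte and maternal markers found summed to 111 to 193 FPKM in KDM6A morulae, 21.3 to 470 FPKM in control morulae and 3751 to 9065 FPKM in 8-cell embryos, and none was at 0 in every library of a group. All 9 tested were lower in both stage comparisons, against 25.6% of all genes for KDM6A morulae and 27.1% for control morulae. Between KDM6A and control morulae 7 of these markers passed the filter. Some of the 9 therefore passed it only through 8-cell libraries, which favours a lower call. Control replicate 1, with the most EIF4E1B among the morulae, also had the highest morula sum at 470 FPKM. The part of these transcripts in the EIF4E1B result was not tested.

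The inhibitors bind eIF4E and keep it from eIF4G. EIF4EBP2 stood at 10.8, 8.20 and 10.4 FPKM in KDM6A morulae, 11.1, 10.6 and 11.1 FPKM in control morulae and 1.85, 1.06 and 0.880 FPKM in 8-cell embryos. The morula libraries lay close together and all far above the 8-cell libraries. Its log2 fold change was 2.27 (SE 0.271, adjusted p = 3.97e-05) for KDM6A morulae and 2.42 (SE 0.245, adjusted p = 2.26e-05) for control morulae over 8-cell embryos (limma). EIF4EBP1 stood at 64.5, 63.4 and 39.9 FPKM in KDM6A morulae, 49.6, 30.5 and 39.1 FPKM in control morulae and 21.4, 4.93 and 5.63 FPKM in 8-cell embryos. The stages did not overlap, and 8-cell replicate 1 was well above the other 8-cell libraries. The log2 fold changes were 2.54 (SE 0.45, adjusted p = 0.000538) and 2.06 (SE 0.454, adjusted p = 0.00244). EIF4EBP3 averaged 12.6 ± 2.38 FPKM in KDM6A morulae, 10.6 ± 0.0751 FPKM in control morulae and 8.32 ± 1.59 FPKM in 8-cell embryos, and its differences did not pass the test (limma adjusted p = 0.0866 for KDM6A morulae and 0.208 for control morulae, against 8-cell embryos). In a limma fit of all 9 libraries EIF4EBP3 was called higher in KDM6A morulae than in 8-cell embryos (0.54, adjusted p = 0.0429).

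Per length, the 3 inhibitor transcripts together amounted to 24.5% ± 5.66 of EIF4E in KDM6A morulae, 19.1% ± 1.56 in control morulae and 3.06% ± 1.34 in 8-cell embryos (SD, n = 3 each). The lowest morula value was 17.98% and the highest 8-cell value 4.50%. The exact two-sided permutation test gave p = 0.1 for each morula group against 8-cell embryos, the smallest that 3 against 3 allows, and p = 0.3 for KDM6A against control morulae. This ratio was chosen after its values were seen, so the p-values describe it and do not test it. EIF4E2, a cap-binding protein that represses translation, averaged 211 ± 7.85 FPKM in KDM6A morulae, 229 ± 37.4 FPKM in control morulae and 182 ± 63.8 FPKM in 8-cell embryos and passed in neither stage comparison. It was called in control morulae without 8-cell replicate 1 (0.63, adjusted p = 0.0378). EIF4ENIF1, which carries eIF4E and represses bound mRNAs, averaged 7.99 ± 1.18 FPKM in KDM6A morulae, 8.08 ± 1.02 FPKM in control morulae and 11.4 ± 1.26 FPKM in 8-cell embryos and passed in neither on FPKM. After quantile or median-of-ratios scaling it was called lower in both. Its log2 fold change was then -0.79 and -0.71 for KDM6A morulae and -0.76 and -0.70 for control morulae, with adjusted p from 0.0104 to 0.0230. After TPM scaling it was called in control morulae (-0.62, adjusted p = 0.0381). EIF4E3, a further cap-binding relative, read 0.41 FPKM in KDM6A replicate 1 and was listed at 0 in the other 2 KDM6A morulae, read 0.12, 0.34 and 0.17 FPKM in control morulae and was listed at 0 in the 8-cell embryos, below the level needed for a test.

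The scaffold and helicase group showed large rises for EIF4G1, EIF4G3 and 1 helicase cofactor, no rise for EIF4G2, and small differences for the helicases. Of 8 members, 5 were higher and 1 lower in KDM6A morulae than in 8-cell embryos, and 3 were higher and none lower in control morulae. The higher share was 62.5% with KDM6A morulae, against 41.1% of all genes, and 37.5% with control morulae, against 42.7%. EIF4H, a cofactor of the eIF4A helicase listed in some tables as WBSCR1, stood at 177, 116 and 106 FPKM in KDM6A morulae, 135, 266 and 189.8 FPKM in control morulae and 27.3, 24.4 and 13.8 FPKM in 8-cell embryos. Its rise on log2(FPKM + 1) was the largest among the tested members in both stage comparisons, on a scale that understates low genes such as EIF4G3 and EIF4EBP2. It had 6.11 times the 8-cell mean in KDM6A morulae and 9.03 times in control morulae, and no morula library came near the 8-cell range. The log2 fold changes were 2.57 (SE 0.293, adjusted p = 2.88e-05) and 3.12 (SE 0.307, adjusted p = 1.96e-05) by limma. The other cofactor, EIF4B, averaged 99.1 ± 6.69 FPKM in KDM6A morulae, 116 ± 4.65 FPKM in control morulae and 89.2 ± 4.90 FPKM in 8-cell embryos and was not called. Its gain in control morulae with no filter on low values had a log2 fold change of 0.37 (adjusted p = 0.0139).

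EIF4G3 and EIF4G1, the scaffolds that join the cap-binding protein to the helicase and to eIF3, were both higher in morulae. EIF4G3 stood at 9.17, 9.80 and 8.06 FPKM in KDM6A morulae, 11.3, 11.2 and 8.06 FPKM in control morulae and 1.03, 1.97 and 0.450 FPKM in 8-cell embryos. Its log2 fold changes over 8-cell embryos were 2.28 (SE 0.302, adjusted p = 7.94e-05) for KDM6A morulae and 2.43 (SE 0.302, adjusted p = 7.58e-05) for control morulae. EIF4G1 stood at 15.7, 26.9 and 22.7 FPKM in KDM6A morulae, 13.7, 18.3 and 15.3 FPKM in control morulae and 7.52, 6.30 and 6.55 FPKM in 8-cell embryos. Its log2 fold changes were 1.52 (SE 0.265, adjusted p = 0.000484) and 1.10 (SE 0.223, adjusted p = 0.00147) in the same order. For both genes every morula library exceeded every 8-cell library. Their sum, per length, was 9.57% ± 1.88 of EIF4E in KDM6A morulae, 8.25% ± 1.90 in control morulae and 1.19% ± 0.0767 in 8-cell embryos (SD, n = 3 each). The stages did not overlap (exact permutation p = 0.1, the smallest possible, for each morula group against 8-cell embryos). That ratio too was chosen after its values were seen, so the p-value is a description only. EIF4G2, an eIF4G relative that lacks the part that binds eIF4E, averaged 231 ± 16.5 FPKM in KDM6A morulae, 279 ± 38.7 FPKM in control morulae and 317 ± 27.3 FPKM in 8-cell embryos. It was called lower in KDM6A morulae, at -0.46 (SE 0.171, adjusted p = 0.0351), and not in control morulae, at -0.19 (SE 0.178, adjusted p = 0.358). The call in KDM6A morulae was lost without KDM6A replicate 2 or 3 or 8-cell replicate 3 (adjusted p = 0.145, 0.104 and 0.125), and a lower call in control morulae appeared after median-of-ratios scaling (-0.47, adjusted p = 0.0415).

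The helicases themselves were abundant at both stages. EIF4A1 averaged 794 ± 118 FPKM in KDM6A morulae, 618 ± 101 FPKM in control morulae and 487 ± 164 FPKM in 8-cell embryos. EIF4A2 averaged 557 ± 36.1 FPKM in KDM6A morulae, 572 ± 53.6 FPKM in control morulae and 462 ± 16.3 FPKM in 8-cell embryos. EIF4A3, the exon junction helicase, averaged 468 ± 18.9 FPKM in KDM6A morulae, 428 ± 39.8 FPKM in control morulae and 321 ± 89.1 FPKM in 8-cell embryos. EIF4A1 and EIF4A3 were called higher in KDM6A morulae than in 8-cell embryos, with limma log2 fold changes of 0.75 (SE 0.25, adjusted p = 0.021) and 0.58 (SE 0.217, adjusted p = 0.0337). The EIF4A1 call was lost after quantile or median-of-ratios scaling and without KDM6A replicate 2 or 3 or 8-cell replicate 2 (adjusted p = 0.0565 to 0.0989, and a value of 0.47 without 8-cell replicate 2). The EIF4A3 call was lost after quantile, median-of-ratios or TPM scaling and without any KDM6A replicate or 8-cell replicate 2 or 3 (adjusted p = 0.0604 to 0.184, and a value of 0.36 without 8-cell replicate 2). Neither was called in control morulae on all libraries, and both were without 8-cell replicate 1 (0.62, adjusted p = 0.0386, for EIF4A1 and 0.64, adjusted p = 0.0185, for EIF4A3). EIF4A2, the other translation helicase, made up 41.4% ± 3.52 of EIF4A1 plus EIF4A2 in KDM6A morulae, 48.2% ± 1.80 in control morulae and 49.7% ± 9.32 in 8-cell embryos (SD, n = 3 each). The KDM6A and control libraries did not overlap, at 38.4% to 45.3% against 46.4% to 49.98%, with an exact permutation p of 0.1, the smallest possible. The exact p was 0.2 for KDM6A morulae against 8-cell embryos and 0.8 for control morulae against 8-cell embryos.

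**Figure D3:**
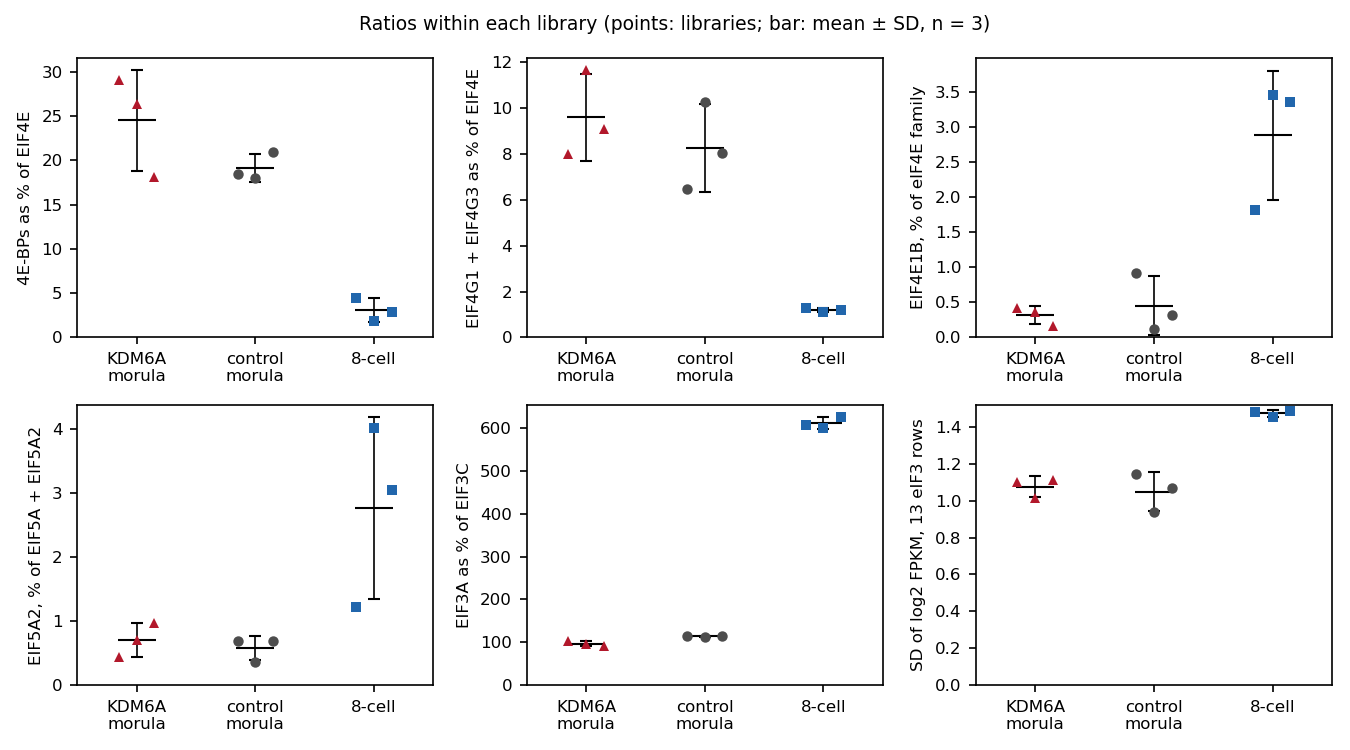
Ratios between members within each library, with 1 point per library and bars for the mean ± SD (n = 3) of KDM6A morulae, control morulae and 8-cell embryos. The inhibitors, and EIF4G1 plus EIF4G3, relative to EIF4E are higher in both morula groups. The EIF4E1B and EIF5A2 shares, EIF3A relative to EIF3C and the spread of the eIF3 rows are higher in 8-cell embryos. The stages do not overlap in any of the 6 panels. Only the EIF4E1B and EIF5A2 shares were planned, and the other ratios were chosen after their values were seen. The EIF3C row is uncertain.

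The group that chooses the start codon and joins the subunits held lower calls and no higher ones in morulae. Of 7 members, 4 were lower and none higher in each stage comparison, and these 4 calls held under all 4 scalings. The lower share was 57.1% in both, against 25.6% of all genes for KDM6A morulae and 27.1% for control morulae. EIF1B, a near relative of the scanning factor EIF1, stood at 117, 119 and 123 FPKM in KDM6A morulae, 135, 98.1 and 99.2 FPKM in control morulae and 348, 374 and 442 FPKM in 8-cell embryos, and the 8-cell libraries lay far above all morulae. Its mean was 3.24 times lower in KDM6A morulae and 3.50 times lower in control morulae than in 8-cell embryos, with log2 fold changes of -1.68 (SE 0.177, adjusted p = 1.78e-05) and -1.81 (SE 0.195, adjusted p = 3.27e-05) by limma. EIF5B, the GTPase that joins the large subunit, stood at 60.1, 68.1 and 57 FPKM in KDM6A morulae, 69.3, 59.7 and 74.9 FPKM in control morulae and 213, 181 and 177 FPKM in 8-cell embryos. EIF5, which makes eIF2 split its GTP at the start codon, stood at 368, 395 and 374 FPKM in KDM6A morulae, 407, 344 and 377 FPKM in control morulae and 878, 752 and 829.8 FPKM in 8-cell embryos. The stages were far apart for both genes, and KDM6A and control morulae overlapped. The log2 fold changes against 8-cell embryos were -1.61 (SE 0.188, adjusted p = 3.48e-05) and -1.47 (SE 0.18, adjusted p = 6.76e-05) for EIF5B, and -1.11 (SE 0.16, adjusted p = 0.00014) and -1.12 (SE 0.164, adjusted p = 0.0002) for EIF5.

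A pair of rows carry the name EIF1, and the sources used here do not say how reads were divided between them, so each is reported as uncertain. Row ENSBTAG00000002282.1 averaged 346 ± 46.6 FPKM in KDM6A morulae, 297 ± 11.1 FPKM in control morulae and 565 ± 116 FPKM in 8-cell embryos, with log2 fold changes of -0.70 (SE 0.2, adjusted p = 0.00993) and -0.90 (SE 0.187, adjusted p = 0.00169). The call in KDM6A morulae was lost without KDM6A replicate 3 (-0.58, adjusted p = 0.0554). Row ENSBTAG00000046450.1 averaged 668 ± 93.7 FPKM in KDM6A morulae, 542 ± 107 FPKM in control morulae and 852 ± 314 FPKM in 8-cell embryos and was not called on FPKM, at -0.29 (SE 0.259, adjusted p = 0.343) and -0.60 (SE 0.276, adjusted p = 0.0772). In the comparison of control morulae with 8-cell embryos it was called after quantile, median-of-ratios or TPM scaling (adjusted p = 0.00586, 0.0105 and 0.0260) and without 8-cell replicate 2 (-0.89, adjusted p = 0.00596). With KDM6A morulae it was called after quantile normalization (-0.61, adjusted p = 0.0428) and without 8-cell replicate 2 (-0.58, adjusted p = 0.0243). EIF1AX, the X-linked form of eIF1A, was among the 3 most abundant members in every group at 1482 ± 74 FPKM in KDM6A morulae, 1684 ± 246 FPKM in control morulae and 1302 ± 298 FPKM in 8-cell embryos. It was not called in either stage comparison, and its log2 fold change of 0.38 for control morulae was -0.05 after quantile normalization. Without 8-cell replicate 1 it was called in both (0.39, adjusted p = 0.0369, for KDM6A morulae and 0.56, adjusted p = 0.0187, for control morulae). EIF1AD averaged 104 ± 9.19 FPKM in KDM6A morulae, 96.5 ± 19.2 FPKM in control morulae and 138 ± 49.3 FPKM in 8-cell embryos and was not called on FPKM. It was called lower without 8-cell replicate 2 in both comparisons (-0.67, adjusted p = 0.0109, for KDM6A morulae and -0.79, adjusted p = 0.00722, for control morulae) and after quantile or median-of-ratios scaling in control morulae (adjusted p = 0.0334 and 0.0315).

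Of the 3 eIF2 subunits 1 was called in each stage comparison, while the exchange factor eIF2B held several higher calls. EIF2S1, the subunit phosphorylated under stress, averaged 324 ± 11.4 FPKM in KDM6A morulae, 348 ± 79.6 FPKM in control morulae and 335 ± 60.2 FPKM in 8-cell embryos. Its log2 fold changes were -0.03 (SE 0.185, adjusted p = 0.891) and 0.04 (SE 0.223, adjusted p = 0.873) on FPKM, the second of which was -0.17, -0.24 and -0.14 after quantile, median-of-ratios and TPM scaling. EIF2S2, the beta subunit, averaged 367 ± 126 FPKM in KDM6A morulae, 579 ± 14.2 FPKM in control morulae and 549 ± 121 FPKM in 8-cell embryos. Its values were -0.61 (SE 0.259, adjusted p = 0.0568) and 0.10 (SE 0.195, adjusted p = 0.661) on FPKM, the second of which was -0.17, -0.18 and -0.08 after the same scalings. With KDM6A morulae EIF2S2 was called lower after quantile, median-of-ratios or TPM scaling (adjusted p = 0.0255, 0.0115 and 0.0280), and also without KDM6A replicate 1 (-0.87, adjusted p = 0.0129) or 8-cell replicate 1 (-0.79, adjusted p = 0.0206). EIF2S3, the gamma subunit that binds GTP, averaged 206 ± 11.8 FPKM in KDM6A morulae, 219 ± 40.3 FPKM in control morulae and 137 ± 8.56 FPKM in 8-cell embryos. It was called higher at 0.59 (SE 0.174, adjusted p = 0.0113) and 0.66 (SE 0.189, adjusted p = 0.0103). The EIF2S3 call was lost without KDM6A replicate 2 in the first of these (adjusted p = 0.0555), without control replicate 1 or 3 in the other (adjusted p = 0.0501 and 0.0509), and after median-of-ratios scaling in both.

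EIF2A and EIF2D, which can deliver initiator tRNA without eIF2, took opposite directions. EIF2A stood at 47, 55.2 and 56.4 FPKM in KDM6A morulae, 72.7, 53.6 and 62.6 FPKM in control morulae and 118, 116 and 156 FPKM in 8-cell embryos, and no morula library reached the 8-cell range. EIF2D stood at 16.3, 15.6 and 13.2 FPKM in KDM6A morulae, 11.2, 18.1 and 16.1 FPKM in control morulae and 3.17, 7.72 and 8.75 FPKM in 8-cell embryos, with all morulae above all 8-cell libraries and 8-cell replicate 1 lowest. The limma log2 fold changes against 8-cell embryos were -1.27 (SE 0.205, adjusted p = 0.000284) in KDM6A morulae and -1.03 (SE 0.201, adjusted p = 0.00119) in control morulae for EIF2A. For EIF2D they were 1.17 (SE 0.334, adjusted p = 0.00939) and 1.16 (SE 0.345, adjusted p = 0.0125). The EIF2D call in control morulae was lost without control replicate 2 (1.03, adjusted p = 0.0522).

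Of the 5 eIF2B subunits, 3 were higher and none lower in KDM6A morulae than in 8-cell embryos, and 4 were higher and none lower in control morulae. The higher share was 60.0% with KDM6A morulae, against 41.1% of all genes, and 80.0% with control morulae, against 42.7%. After median-of-ratios or TPM scaling 2 were called higher in each comparison, and after quantile normalization 2 with KDM6A morulae and 3 with control morulae. EIF2B2 and EIF2B4 were called under every scaling in both comparisons. EIF2B4 stood at 60.6, 57.1 and 37.9 FPKM in KDM6A morulae, 57.2, 58.6 and 47.5 FPKM in control morulae and 16.4, 10.5 and 13.5 FPKM in 8-cell embryos. All morulae were well above the 8-cell embryos, with log2 fold changes of 1.86 (SE 0.263, adjusted p = 0.000121) and 1.95 (SE 0.221, adjusted p = 4.32e-05). EIF2B2 stood at 149.6, 153 and 129 FPKM in KDM6A morulae, 145, 143 and 121 FPKM in control morulae and 72.4, 52.3 and 71.1 FPKM in 8-cell embryos. The stages again did not overlap, with log2 fold changes of 1.14 (SE 0.204, adjusted p = 0.000576) and 1.06 (SE 0.196, adjusted p = 0.000839). EIF2B3 averaged 55.5 ± 5.36 FPKM in KDM6A morulae, 58.7 ± 3.96 FPKM in control morulae and 36.1 ± 12.4 FPKM in 8-cell embryos and was called at 0.65 (SE 0.255, adjusted p = 0.0418) and 0.73 (SE 0.243, adjusted p = 0.0208). In the KDM6A comparison that call was lost after quantile, median-of-ratios or TPM scaling (0.50, 0.39 and 0.54, adjusted p = 0.0937, 0.177 and 0.0891) and without any KDM6A replicate or 8-cell replicate 2 or 3 (adjusted p = 0.0539 to 0.123). In the control comparison it was lost after median-of-ratios or TPM scaling (adjusted p = 0.0908 and 0.0665) and without control replicate 1 or 3 or 8-cell replicate 2 or 3 (adjusted p = 0.0589 to 0.0700). EIF2B5, the catalytic subunit, averaged 28.5 ± 5.90 FPKM in KDM6A morulae, 35.1 ± 6.23 FPKM in control morulae and 21.1 ± 3.98 FPKM in 8-cell embryos. It was called higher in control morulae, at 0.71 (SE 0.225, adjusted p = 0.0171), but not after quantile, median-of-ratios or TPM scaling or without control replicate 2 or 3 (adjusted p = 0.0649 to 0.123). EIF2B1 averaged 53 ± 8.31 FPKM in KDM6A morulae, 50.6 ± 16.9 FPKM in control morulae and 43.2 ± 15 FPKM in 8-cell embryos and was not called. Summed eIF2B per length was 37.3% ± 3.71 of the summed eIF2 subunits in KDM6A morulae, 29.5% ± 3.70 in control morulae and 17.6% ± 3.30 in 8-cell embryos (SD, n = 3 each). The exact permutation p was 0.1, the smallest possible, for each morula group against 8-cell embryos. The lowest KDM6A value, in replicate 1, and the highest control value, in replicate 2, both rounded to 33.493%. The exact p between KDM6A and control morulae was also 0.1, and it rests on a gap smaller than that rounding. The ratio of eIF2B to eIF2 was chosen after its values were seen, so these p-values describe it and do not test it.

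The eIF3 complex, which holds the small subunit and binds eIF4G, spread less widely in transcript level in morulae. Of its 13 members, 7 were higher and 4 lower in KDM6A morulae than in 8-cell embryos, and 6 were higher and 3 lower in control morulae. The shares were 53.8% and 30.8% with KDM6A morulae, against 41.1% and 25.6% of all genes, and 46.2% and 23.1% with control morulae, against 42.7% and 27.1%, so those with control morulae were near the background. After quantile normalization the split was 6 and 5 with KDM6A morulae and 5 and 5 with control morulae, and after median-of-ratios scaling it was 5 and 5 with each. The 6 members called higher in control morulae were, with EIF3J, the 7 lowest rows of the complex in 8-cell embryos, a description in which both sides use the same 8-cell libraries. EIF3C, a core scaffold whose row some tables name EIF3CL after a near-identical copy and which is therefore uncertain, stood at 57, 97 and 93.3 FPKM in KDM6A morulae, 58.9, 60.7 and 60.3 FPKM in control morulae and 20.9, 29.6 and 27.7 FPKM in 8-cell embryos. EIF3A, the largest scaffold subunit, stood at 58, 94 and 85.4 FPKM in KDM6A morulae, 67.5, 68.4 and 69.4 FPKM in control morulae and 127, 178 and 174 FPKM in 8-cell embryos. The stages did not overlap for either gene, and the directions were opposite. The limma log2 fold changes against 8-cell embryos were 1.60 (SE 0.259, adjusted p = 0.000296) in KDM6A morulae and 1.19 (SE 0.198, adjusted p = 0.000463) in control morulae for EIF3C, and -1.01 (SE 0.236, adjusted p = 0.00302) and -1.19 (SE 0.189, adjusted p = 0.000338) for EIF3A.

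EIF3A relative to EIF3C, per length, was 101.9%, 96.8% and 91.5% in KDM6A morulae, 114.6%, 112.8% and 114.97% in control morulae and 607%, 599.9% and 627% in 8-cell embryos. The EIF3C row is uncertain, as given above, and the ratio is uncertain with it. No group overlapped with another, and each exact permutation p was 0.1, the smallest that 3 against 3 allows. The standard deviation of log2 FPKM over the 13 eIF3 rows was 1.08 ± 0.0557 in KDM6A morulae, 1.05 ± 0.105 in control morulae and 1.47 ± 0.0170 in 8-cell embryos (n = 3 each), again without overlap between stages (exact p = 0.1). Both measures were chosen after their values were seen, so these p-values and gaps describe them and do not test them.

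Among the other eIF3 members, EIF3F stood at 209, 180.3 and 154 FPKM in KDM6A morulae, 185, 201 and 196 FPKM in control morulae and 71.9, 46.4 and 56.8 FPKM in 8-cell embryos. It had the largest rise of the complex, with log2 fold changes of 1.63 (SE 0.221, adjusted p = 9.32e-05) in KDM6A morulae and 1.74 (SE 0.199, adjusted p = 4.69e-05) in control morulae over 8-cell embryos. EIF3I averaged 303 ± 44.8 FPKM in KDM6A morulae, 319.7 ± 55.7 FPKM in control morulae and 147 ± 36 FPKM in 8-cell embryos and was called at 1.06 (SE 0.225, adjusted p = 0.0017) and 1.14 (SE 0.23, adjusted p = 0.00147). EIF3B, EIF3D and EIF3G were also called higher in both, with log2 fold changes from 0.73 to 1.30. The EIF3B call with KDM6A morulae was lost after median-of-ratios or TPM scaling and without KDM6A replicate 1 or 2 or 8-cell replicate 2 (0.47 to 0.71, adjusted p = 0.0535 to 0.110). The EIF3G call with control morulae was lost after all 3 other scalings, with a pseudocount of 0.1 (adjusted p = 0.0511), and without any control replicate or 8-cell replicate 2 or 3 (0.48 to 1.04, adjusted p = 0.0504 to 0.118). EIF3M stood at 220.3, 269 and 258 FPKM in KDM6A morulae, 305, 258 and 311 FPKM in control morulae and 651, 501 and 742 FPKM in 8-cell embryos. Every morula lay below every 8-cell library, with log2 fold changes of -1.32 (SE 0.195, adjusted p = 0.000158) and -1.10 (SE 0.194, adjusted p = 0.000642). EIF3H averaged 269.9 ± 24.3 FPKM in KDM6A morulae, 281 ± 31.6 FPKM in control morulae and 451 ± 86.7 FPKM in 8-cell embryos. It was called lower at -0.72 (SE 0.196, adjusted p = 0.00722) and -0.67 (SE 0.198, adjusted p = 0.0127), and its control call was lost without control replicate 2 or 8-cell replicate 3 (adjusted p = 0.0574 and 0.0540). EIF3E, the most abundant eIF3 row in morulae, averaged 458 ± 50.5 FPKM in KDM6A morulae, 478 ± 47.4 FPKM in control morulae and 529 ± 28.9 FPKM in 8-cell embryos. EIF3L averaged 248 ± 15.9 FPKM in KDM6A morulae, 232 ± 27.8 FPKM in control morulae and 201 ± 48.6 FPKM in 8-cell embryos. Neither was called on FPKM. EIF3E was called lower in both stage comparisons after quantile or median-of-ratios scaling (-0.41 to -0.47, adjusted p = 0.0218 to 0.0358). EIF3K averaged 373 ± 35.1 FPKM in KDM6A morulae, 353 ± 54.5 FPKM in control morulae and 259 ± 47.7 FPKM in 8-cell embryos. EIF3J, a loosely bound subunit, averaged 70.2 ± 8.28 FPKM in KDM6A morulae, 94.5 ± 6.95 FPKM in control morulae and 132 ± 25.9 FPKM in 8-cell embryos. EIF3K was called higher with KDM6A morulae, at 0.53 (SE 0.189, adjusted p = 0.0278), and EIF3J lower, at -0.89 (SE 0.211, adjusted p = 0.00337), and neither passed with control morulae. The EIF3K call was lost after all 3 other scalings and without KDM6A replicate 2 or 3 or 8-cell replicate 2 or 3 (adjusted p = 0.0561 to 0.199), and in control morulae EIF3K was called without 8-cell replicate 1 (0.59, adjusted p = 0.0194). EIF3J was called lower in control morulae after all 3 other scalings and without 8-cell replicate 2 (-0.60 to -0.74, adjusted p = 0.00386 to 0.0177).

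EIF5A2 and EIF6 were lower in morulae, and EIF5A was not called. EIF5A carries the modified amino acid hypusine and helps ribosomes past difficult stretches, and EIF5A2 is its less widely expressed relative. EIF5A2 stood at 2.88, 5.24 and 7.07 FPKM in KDM6A morulae, 4.11, 1.73 and 3.16 FPKM in control morulae and 16.7, 23.6 and 19 FPKM in 8-cell embryos. The 8-cell libraries all exceeded the morulae, with log2 fold changes of -1.83 (SE 0.31, adjusted p = 0.000409) in KDM6A morulae and -2.41 (SE 0.286, adjusted p = 5.65e-05) in control morulae (limma). EIF5A stood at 659.8, 741 and 727 FPKM in KDM6A morulae, 594, 482 and 453 FPKM in control morulae and 1349, 565 and 606 FPKM in 8-cell embryos, and 8-cell replicate 1 was far above the other 8-cell libraries, which lay within the range of the morulae. Its log2 fold changes were -0.13 (SE 0.29, adjusted p = 0.717) and -0.61 (SE 0.308, adjusted p = 0.102). The second of these was called after quantile, median-of-ratios or TPM scaling (adjusted p = 0.0148, 0.0182 and 0.0374) and without 8-cell replicate 2 (-0.84, adjusted p = 0.0374). EIF5A2 made up 0.700% ± 0.265 of the pair in KDM6A morulae, 0.579% ± 0.192 in control morulae and 2.76% ± 1.42 in 8-cell embryos (SD, n = 3 each), with no overlap between stages. EIF6, which keeps the large subunit from joining too early, averaged 388 ± 70.7 FPKM in KDM6A morulae, 369 ± 116 FPKM in control morulae and 811 ± 136 FPKM in 8-cell embryos. It was called lower at -1.06 (SE 0.199, adjusted p = 0.000763) and -1.17 (SE 0.249, adjusted p = 0.00199).

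Most elongation factors were higher in morulae than in 8-cell embryos. Of 6 tested among 7 members, 5 were higher in KDM6A morulae, 4 were higher in control morulae and none was lower in either, with a median log2 fold change of 1.49 for KDM6A morulae and 1.50 for control morulae against all-gene medians of 0.34 and 0.35. The higher share was 83.3% of those tested with KDM6A morulae, against 41.1% of all genes, and 66.7% with control morulae, against 42.7%. The counts were the same under all 4 scalings. EEF1A1, which brings tRNA to the ribosome and may share reads with its processed copies, stood at 1789, 1960.0 and 1984 FPKM in KDM6A morulae, 2035, 1887 and 1961 FPKM in control morulae and 778, 394 and 507 FPKM in 8-cell embryos. It was 3.41 times the 8-cell mean in KDM6A morulae and 3.50 times in control morulae, with log2 fold changes of 1.83 (SE 0.231, adjusted p = 5.88e-05) and 1.86 (SE 0.239, adjusted p = 9.03e-05). EEF1B2, part of the complex that recharges eEF1A with GTP and listed as EEF1B in some tables, stood at 1501, 1388 and 1418 FPKM in KDM6A morulae, 1539, 1805 and 1788 FPKM in control morulae and 279.5, 260.5 and 217 FPKM in 8-cell embryos. All morulae exceeded all 8-cell embryos for both genes, by far more than the libraries of a group differed among themselves. EEF1B2 had log2 fold changes of 2.51 (SE 0.168, adjusted p = 1.27e-06) and 2.76 (SE 0.174, adjusted p = 1.95e-06), the smallest adjusted p of any member in each stage comparison.

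Per length, the transcript of EEF1B2 was 75.4% ± 7.38 of EEF1A1 in KDM6A morulae, 87.5% ± 10.5 in control morulae and 48.3% ± 15.8 in 8-cell embryos (SD, n = 3 each). The stages did not overlap (exact permutation p = 0.1, the smallest possible, for both), and the exact p between KDM6A and control morulae was 0.2. As this ratio was chosen after its values were seen, the p-values are a description only. EEF1G, another subunit of the exchange complex, stood at 212, 193 and 173 FPKM in KDM6A morulae, 202, 185 and 179 FPKM in control morulae and 73.3, 30.5 and 28.7 FPKM in 8-cell embryos. Its log2 fold changes were 2.23 (SE 0.32, adjusted p = 0.000134) and 2.20 (SE 0.32, adjusted p = 0.000189). EEF1D, its further exchange subunit, averaged 111 ± 16.9 FPKM in KDM6A morulae, 108 ± 11.9 FPKM in control morulae and 50.8 ± 19.3 FPKM in 8-cell embryos and was called at 1.16 (SE 0.266, adjusted p = 0.00274) and 1.13 (SE 0.256, adjusted p = 0.00291). EEF1E1, the synthetase scaffold, averaged 117 ± 10.2 FPKM in KDM6A morulae, 112 ± 20.5 FPKM in control morulae and 105 ± 7.81 FPKM in 8-cell embryos and was not called.

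EEF2, which moves the ribosome along, was low beside EEF1A1. It stood at 40.5, 65.7 and 56.1 FPKM in KDM6A morulae, 41.1, 43.3 and 33.1 FPKM in control morulae and 41.4, 22.3 and 19.6 FPKM in 8-cell embryos, and 8-cell replicate 1 overlapped with the morulae. It was called with KDM6A morulae, at 0.99 (SE 0.303, adjusted p = 0.0141), and not with control morulae, at 0.55 (SE 0.282, adjusted p = 0.107). The first call was lost without KDM6A replicate 2 or 8-cell replicate 3 (adjusted p = 0.0646 and 0.0585), and a call with control morulae appeared without 8-cell replicate 1 (0.87, adjusted p = 0.00643). EEF1A2, the form of adult muscle and neurons, was listed at 0 in 8 libraries and at 0.06 FPKM in KDM6A replicate 3. Its share of EEF1A1 plus EEF1A2 was therefore 0 in 8 libraries and 0.00302% in the other.

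Among the enzymes, EEF2K, the kinase that inactivates eEF2, was near 0 in morulae at 0.03, 0.13 and 0.21 FPKM in KDM6A morulae and 0.12, 0.03 and 0.02 FPKM in control morulae, against 0.54, 1.31 and 0.98 FPKM in 8-cell embryos. No morula library reached the 8-cell range, and the gene was below the level needed for the test. With no filter on low values it was called lower (log2 fold change -0.77, adjusted p = 0.0135, for KDM6A morulae and -0.86, adjusted p = 0.00811, for control morulae by limma). EEF2KMT, a methyltransferase for eEF2, averaged 6.36 ± 3.93 FPKM in KDM6A morulae, 9.25 ± 1.47 FPKM in control morulae and 2.28 ± 1.47 FPKM in 8-cell embryos. It was called higher at 1.13 (SE 0.415, adjusted p = 0.0321) and 1.73 (SE 0.325, adjusted p = 0.000943). Its call with KDM6A morulae was lost without KDM6A replicate 1 or 3 or 8-cell replicate 1 or 3 (0.72 to 1.22, adjusted p = 0.0558 to 0.146), and after quantile or median-of-ratios scaling (adjusted p = 0.149 and 0.0791). EEF1AKMT1, a methyltransferase for eEF1A, averaged 40.3 ± 6.63 FPKM in KDM6A morulae, 40.1 ± 4.87 FPKM in control morulae and 22.5 ± 8.14 FPKM in 8-cell embryos. It was called higher at 0.86 (SE 0.278, adjusted p = 0.0177) and 0.86 (SE 0.263, adjusted p = 0.0144), and both calls were lost after median-of-ratios scaling (adjusted p = 0.0581 and 0.0505). The first was also lost without KDM6A replicate 1 or 2 or 8-cell replicate 2 (adjusted p = 0.0534 to 0.0632), and the second without control replicate 2 (adjusted p = 0.0507). EEF1AKMT3 averaged 0.793 ± 0.212 FPKM in KDM6A morulae, 0.440 ± 0.306 FPKM in control morulae and 0.880 ± 0.738 FPKM in 8-cell embryos, below the level needed for a test. EIF2C2, the argonaute row, averaged 8.78 ± 1.18 FPKM in KDM6A morulae, 10.2 ± 0.333 FPKM in control morulae and 11.7 ± 1.29 FPKM in 8-cell embryos and was not called on FPKM. It was called lower in KDM6A morulae than in 8-cell embryos after quantile or median-of-ratios scaling (-0.68 and -0.62, adjusted p = 0.0212 and 0.0350).

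No factor was called between KDM6A morulae, which received the mRNA, and control morulae, which did not. Of the 57 tested members 0 were called higher and 0 lower, against 0.164% of the 9777 genes tested (12 genes or 0.123% higher and 4 genes or 0.0409% lower), and the lowest adjusted p among the members was 0.269 (limma). At an unadjusted p under 0.05 there were 4 members, which is 7.02% of those tested against 12.7% of all genes. The groups did not overlap for 7 members, which is 12.3% against 15.7% of all genes. All KDM6A libraries lay above all control libraries for EIF5A and EIF4EBP3, and below them for EIF3J, EIF2C2, EIF4B, EIF2S2 and EEF1B2. Log2 fold changes ranged from -0.71 to 0.58, with a median of -0.02 for the members and -0.01 for all genes.

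The 10 members with the smallest p are given as values. EIF5A stood at 659.8, 741 and 727 FPKM in KDM6A morulae and 594, 482 and 453 FPKM in control morulae, with a log2 fold change of 0.48 (SE 0.14, adjusted p = 0.269). EIF2S2 stood at 505, 336 and 259.5 FPKM in KDM6A morulae and 595, 567 and 575 FPKM in control morulae, with -0.71 (SE 0.209, adjusted p = 0.276). The control libraries of EIF2S2 lay close together and the KDM6A libraries spread widely, with replicate 1 nearest to the controls. EIF3J stood at 78, 71.1 and 61.5 FPKM in KDM6A morulae and 102, 88.1 and 93.5 FPKM in control morulae, with -0.43 (SE 0.161, adjusted p = 0.32), and EEF1B2 differed by -0.25 (SE 0.116, adjusted p = 0.4). EIF3C stood at 57, 97 and 93.3 FPKM in KDM6A morulae and 58.9, 60.7 and 60.3 FPKM in control morulae, with 0.41 (SE 0.21, adjusted p = 0.431), and KDM6A replicate 1 lay below the controls while the other 2 pools lay well above them. For EIF4A1, EIF3G, EIF4H, EEF2 and EIF4EBP1 the groups overlapped, with log2 fold changes of 0.36, 0.39, -0.54, 0.44 and 0.48 and adjusted p of 0.385 to 0.425.

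KDM6A replicate 1, the injected pool with the lowest KDM6A transcript, moved the number of genes called. Without it, 725 of 9596 genes tested (7.56%) passed, and 3 members among them. EIF2S2 was lower at -0.97 (SE 0.152, adjusted p = 0.00960), EEF2KMT lower at -1.0045 (SE 0.228, adjusted p = 0.0308) and EIF3C higher at 0.66 (SE 0.153, adjusted p = 0.0326), all by limma with 2 KDM6A pools against 3 controls. No member was called when any other single library was left out. These values describe what that library contributes, and the part of its KDM6A level in them was not tested.

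**Figure D4:**
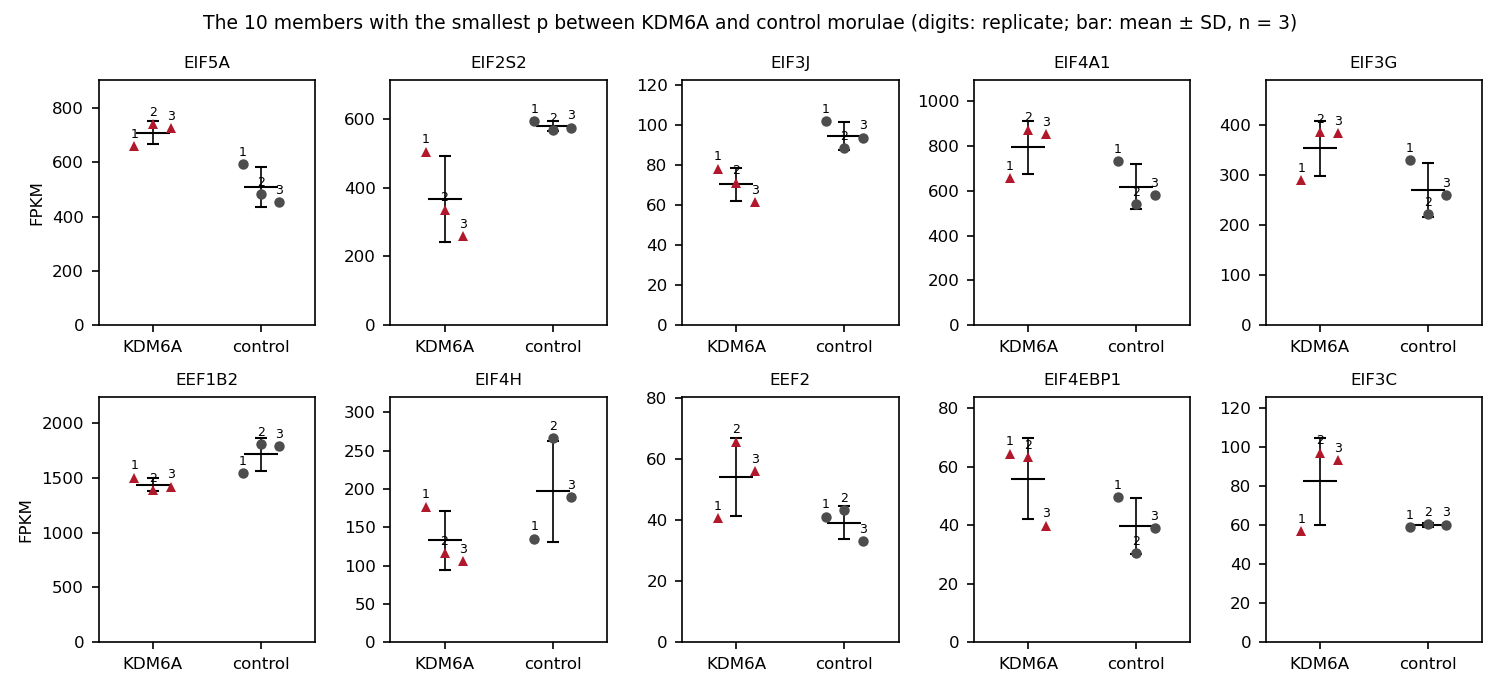
FPKM of the 10 members with the smallest p between KDM6A morulae (triangles) and control morulae (circles), with the replicate number at each point and bars for the mean ± SD (n = 3). KDM6A replicate 1 lies nearer to the control mean than replicates 2 and 3 for 9 of the 10, all but EIF4EBP1, and no member was called.

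Genes around the factors were read from lists of their regulators and partners. No gene of any of the 6 lists was called between KDM6A and control morulae. Against 8-cell embryos, their counts are read beside shares over all genes of 41.1% higher and 25.6% lower for KDM6A morulae and 42.7% higher and 27.1% lower for control morulae. Among kinases and phosphatase subunits that act on eIF2 alpha, 1 was higher and 3 lower of 6 tested in KDM6A morulae against 8-cell embryos, and 1 was higher and 4 lower in control morulae. EIF2AK1, the kinase that responds to low heme, averaged 10.7 ± 0.522 FPKM in control morulae and 283 ± 34.6 FPKM in 8-cell embryos (log2 fold change -4.60, SE 0.182, adjusted p = 2.51e-07). In KDM6A morulae it averaged 12.2 ± 1.22 FPKM, with a log2 fold change of -4.43. IMPACT, which restrains another of these kinases, averaged 8.51 ± 0.935 FPKM in control morulae and 51.8 ± 9.10 FPKM in 8-cell embryos (log2 fold change -2.46, SE 0.213, adjusted p = 9.74e-06). The kinase it restrains, EIF2AK4, was the gene that was higher. The lower share was 50% with KDM6A morulae and 66.7% with control morulae. The list's median log2 fold change was -0.76 for KDM6A morulae and -1.16 for control morulae.

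In the poly(A)-binding list, 4 genes were higher and 4 lower of 8 tested in each stage comparison, or 50% in each direction, with medians of -0.75 for KDM6A morulae and -0.72 for control morulae. PABPN1, the nuclear poly(A)-binding protein, averaged 153 ± 8.39 FPKM in control morulae and 755 ± 273 FPKM in 8-cell embryos (log2 fold change -2.23, SE 0.266, adjusted p = 5.94e-05). Its embryonic relative PABPN1L averaged 0.287 ± 0.454 FPKM in control morulae and 5.76 ± 1.06 FPKM in 8-cell embryos (log2 fold change -2.44, SE 0.279, adjusted p = 4.64e-05). PABPN1L passed the filter of 1 FPKM through 8-cell libraries alone, which favours a lower call. In the mTOR and MNK signalling list, which governs the eIF4E inhibitors and eIF4E itself, 11 genes were higher and 7 lower of 26 in KDM6A morulae and 13 were higher and 9 lower in control morulae, with medians of 0.55 and 0.59. Those shares were 42.3% and 26.9% with KDM6A morulae, near the background, and 50% and 34.6% with control morulae. After quantile normalization the splits were 10 and 10 with KDM6A morulae and 11 and 9 with control morulae (medians 0.23 and 0.19), and after median-of-ratios scaling 10 and 10, and 10 and 9. LAMTOR2, part of the lysosomal platform for mTOR, averaged 518 ± 70.7 FPKM in control morulae and 93.4 ± 4.78 FPKM in 8-cell embryos (log2 fold change 2.45, SE 0.173, adjusted p = 3.37e-06). RPS6KA1, a kinase named for its substrate, ribosomal protein S6, averaged 14.1 ± 1.97 FPKM in control morulae and 0.373 ± 0.319 FPKM in 8-cell embryos (log2 fold change 3.48, SE 0.261, adjusted p = 4.49e-06). It passed the filter of 1 FPKM through morula libraries alone, which favours a higher call.

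For termination and recycling, 2 genes were higher and 4 lower of 8 tested in KDM6A morulae against 8-cell embryos, and 3 were higher and 4 lower in control morulae, with medians of -0.39 and -0.42. The lower share was 50% in both. In control morulae the split was 1 and 5 after quantile or median-of-ratios scaling. N6AMT1, which methylates the release factor, averaged 17.8 ± 3.03 FPKM in control morulae and 3.40 ± 0.972 FPKM in 8-cell embryos (log2 fold change 2.11, SE 0.263, adjusted p = 7.61e-05). PELO, a rescue factor for stalled ribosomes, averaged 5.86 ± 1.12 FPKM in control morulae and 21.1 ± 4.44 FPKM in 8-cell embryos (log2 fold change -1.68, SE 0.245, adjusted p = 0.000194). For the enzymes that make hypusine on eIF5A and diphthamide on eEF2, 3 were higher and 3 lower of 8 in KDM6A morulae and 2 were higher and 2 lower of 7 in control morulae, with medians of -0.05 and 0.10. Shares were 37.5% in each direction with KDM6A morulae and 28.6% in each with control morulae. DPH5, of the diphthamide pathway, averaged 23.3 ± 3.58 FPKM in control morulae and 5.15 ± 0.981 FPKM in 8-cell embryos (log2 fold change 1.99, SE 0.234, adjusted p = 5.45e-05). DPH3, of the same pathway, averaged 82.3 ± 23.2 FPKM in control morulae and 152 ± 14.9 FPKM in 8-cell embryos (log2 fold change -0.91, SE 0.229, adjusted p = 0.00526). Among mitochondrial translation factors, 4 were higher and 1 lower of 9 in KDM6A morulae and 5 were higher and 1 lower in control morulae, with medians of 0.47 and 0.66. The higher share was 44.4% with KDM6A morulae and 55.6% with control morulae. In control morulae the split was 4 and 3 after quantile or median-of-ratios scaling. TUFM, the mitochondrial counterpart of eEF1A, averaged 112 ± 16.7 FPKM in control morulae and 35.6 ± 6.56 FPKM in 8-cell embryos (log2 fold change 1.63, SE 0.21, adjusted p = 9.38e-05). Its exchange factor TSFM averaged 77.9 ± 10.5 FPKM in control morulae and 21.7 ± 8.55 FPKM in 8-cell embryos (log2 fold change 1.87, SE 0.297, adjusted p = 0.000337).

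Transcripts of other cell types were low. The 8 cumulus and granulosa markers found summed to 7.56 to 12.6 FPKM in KDM6A morulae, 12.1 to 14.6 FPKM in control morulae and 18.8 to 36.8 FPKM in 8-cell embryos, and CYP11A1 and PTX3 were listed at 0 in every 8-cell library. The 11 donor fibroblast markers summed to 11.5 to 35.3 FPKM in KDM6A morulae, 13.8 to 32.9 FPKM in control morulae and 15.9 to 62.5 FPKM in 8-cell embryos, with PRRX1 listed at 0 in every KDM6A and 8-cell library. The cumulus and granulosa sums did not overlap between stages, and HAS2 and TNFAIP6, 2 of the 3 tested, were called lower in both stage comparisons. That is 66.7%, against 25.6% of all genes for KDM6A morulae and 27.1% for control morulae. Between KDM6A and control morulae 2 of these markers passed the filter, so not all of the 3 passed it through morula libraries alone. The fibroblast sums overlapped between all groups. Of the fibroblast markers, LUM and COL5A1 were called lower and THY1 higher in both stage comparisons, among 6 tested with KDM6A morulae and 5 with control morulae. With KDM6A morulae that is 16.7% higher and 33.3% lower, against 41.1% and 25.6% of all genes. With control morulae it is 20% and 40%, against 42.7% and 27.1%. Between KDM6A and control morulae 4 of the fibroblast markers passed the filter. Not all of those tested by stage therefore passed it through morula libraries alone, which favours a lower call. The part of either list in the results above was not tested.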

How the data were processed

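The deposited values are FPKM per gene in 1 table per pool, made by the authors. The submitters' processing notes name bcl2fastq 2.16, HISAT 0.1.6, StringTie 1.0.4, Bowtie2 2.2.5, RSEM 1.2.12 and build UMD3.1, and the sources used here do not give the role of each, the strand setting or any filter. Rows were joined by gene identifier, and 3038 rows with no annotated identifier in the table of control replicate 1 were left out. Read depth is unknown: of ratios of low values between libraries, the most common log2 bin of width 0.1 held 3.92% to 8.21% over 36 pairs, so no read counts were recovered and no counting interval is given.

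Genes at or above 1 FPKM in at least 3 of the 6 libraries of a comparison were tested with limma 3.58.1 (R 4.3.3) on log2(FPKM + 1), with a trend in the variance and Benjamini-Hochberg adjustment over all genes tested. Fold changes on that scale understate the change of low genes. Ratios within a library were compared with exact two-sided permutation tests. The fit was also run on simulated data with known changes, and how many of them it recovered is not reported here. Alternatives were pseudocounts, filters, 3 scalings, a fit of all 9 libraries, a block for the replicate number, and leaving out each library. Tables and figures used Python 3.11.15, pandas 2.3.3, numpy 2.4.6 and matplotlib 3.10.9. Symbols were matched to the RefSeq ARS-UCD2.0 gene table (61 of 61 by symbol or synonym), which was used for names only.

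Members and lists were chosen with earlier results of these data known. Named were the 10 members of smallest p between KDM6A and control morulae, up to 3 of the largest called rises and falls of each role between control morulae and 8-cell embryos whose higher group averaged 5 FPKM or more, a list of members always given, and up to 2 genes of smallest p in each related list. Members outside this rule are named so that every member is accounted for. The shares of EEF1A2, EIF5A2, EIF4E1B and EIF4A2 were planned, and the other ratios were chosen after their values were seen.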

Additional observations from a re-analysis of the deposited data

How the results depend on the processing

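With control morulae against 8-cell embryos, the median log2 fold change of the members was 0.38 on FPKM, 0.12 after quantile normalization and 0.10 after median-of-ratios scaling, which also raised the lower calls to 19. With KDM6A morulae the median was 0.34 on FPKM and 0.083 after median-of-ratios scaling, and the split of 26 higher and 14 lower calls became 21 and 19 after quantile normalization, 18 and 18 after median-of-ratios scaling 22 and 15 as TPM and 19 and 15 with no filter on low values. Of these calls, 18 of the 26 and 14 of the 14 were made under all 4 scalings. Leaving out 1 library at a time gave 18 to 26 higher and 12 to 16 lower members for KDM6A morulae and 19 to 29 and 11 to 16 for control morulae against 8-cell embryos, with medians of 0.27 to 0.44 and 0.29 to 0.56. Between KDM6A and control morulae it gave 0 to 1 higher and 0 to 2 lower members and medians of -0.07 to 0.05, the members called being those without KDM6A replicate 1.

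Differences in share changed sign in 3 cases. The EIF5A2 share, KDM6A minus control morulae, ranged from -0.0106 to 0.254 percentage points, negative without KDM6A replicate 3. The EIF4E1B share in the same comparison ranged from -0.297 to 0.103, positive without control replicate 1. The EIF4A2 share, control morulae minus 8-cell embryos, ranged from -5.92 to 3.37, positive without 8-cell replicate 2. For control morulae over 8-cell embryos, EIF2S1 was -0.17, -0.24 and -0.14 after quantile, median-of-ratios and TPM scaling. Leaving out libraries gave it values from -0.0911 to 0.243, negative without control replicate 1 or 3 or 8-cell replicate 2. EIF2S2 was -0.17, -0.18 and -0.081 after the same scalings and from -0.0759 to 0.248 with libraries left out, negative without 8-cell replicate 1. EIF1AX was -0.0509 after quantile normalization. In each case the cause was not tested.

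The replicate numbers did not pair the samples: deviations of same-numbered KDM6A and control pools correlated at -0.217, -0.242 and 0.160. With the replicate number as a block, 0 members were called higher and 0 lower between KDM6A and control morulae, 24 and 13 for KDM6A morulae and 24 and 15 for control morulae against 8-cell embryos. Under the block EIF2B3, EIF3K and EIF4G2 were not called with KDM6A morulae (adjusted p = 0.0536, 0.0544 and 0.0763), and an EIF1 row, EIF3J, EIF3K and EIF5A were called with control morulae (adjusted p = 0.0220 to 0.0464). A limma fit of all 9 libraries added EIF2S2 as lower and EIF4EBP3 as higher with KDM6A morulae (adjusted p = 0.0324 and 0.0429). With control morulae that fit added EIF3K and EIF4B as higher, and EIF3J and an EIF1 row as lower (adjusted p = 0.0421 to 0.0493). Depth is unknown, so no limit from it can be given.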
